A study of Mus musculus with 9 samples.

Results

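The genes described here are 10 markers of T lymphocytes and natural killer (NK) cells, measured in bone marrow cells of mouse leukemias that are otherwise myeloid. The members were Cd3e, Cd3g, Lck, Thy1, Cd5, Klrd1, Gzma, Gzmb, Nkg7 and Prf1, and every probe set that the platform annotation pairs with 1 of these symbols alone was taken. That gave 10 probe sets of 9 genes among 45101 probe sets on the array, with 2 probe sets for Prf1 and 1 for each of the others. The annotation lists no probe set for Lck, the kinase that starts T cell receptor signalling, so it is not analysed here. The members were asked whether they move together across the leukemias.

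There were 3 groups of 3 arrays, all from mice of a C57/BL6 X 129 background. Af10 deleted leukemias were MLL-AF9 leukemias with homozygous floxed Af10, transduced with a tdTomato vector that expresses Cre recombinase. Af10 floxed leukemias carried the same fusion and the same floxed alleles with the vector lacking Cre (MIT). Both grew in secondary recipient mice, and their bone marrow cells were sorted for tdTomato before RNA was prepared. Hoxa9-Meis1 leukemias were primary ones, driven by both of the genes they are named for, and they were neither sorted nor treated, so in comparisons with them the oncogene, the sort, the vector and the transplant generation cannot be told apart. Only the deleted group carried Cre, so Cre expression and loss of Af10 cannot be told apart either. Whether the arrays of a group come from different mice is not said in the labels.

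T cells recognise antigen through a receptor whose chains have no signalling domain of their own. They depend on the CD3 chains, which carry the activation motifs that Lck phosphorylates. NK cells use other receptors, among them the CD94 chain encoded by Klrd1. Both kinds of killer cell store perforin and granzymes in granules. Perforin lets the granzymes into the target cell, where they cleave proteins and cause its death. Fewer cells of a type and less RNA per cell cannot be told apart in bulk RNA.

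Values are log2(intensity + 1) of the deposited normalised intensities, and a difference is in log2 units. Errors after ± are SD of 3 arrays, and SE is that of the difference in the limma fit. Calls rest on a limma adjusted p below 0.05, adjusted over all 45101 probe sets. As a gauge of background, 9 probe sets of Kdm5d, Uty and Eif2s3y (genes of the Y chromosome), dim on every array, spanned 2.97 to 4.71. Other probe sets can have a higher floor of their own, so a value above this range does not by itself show expression. Median intensity per array was between 146 and 156. All 4 probe sets of the targeted gene Mllt10, which encodes AF10, fell in deleted against floxed leukemias, by 0.76 to 1.05. One of them was at 9.93, 9.89 and 10.19 in deleted, at 11.20, 10.49 and 11.18 in floxed and at 10.93, 10.67 and 10.46 in Hoxa9-Meis1 leukemias, so the transcript was lowered and still detected. Of 13 measured myeloid markers none had a group mean in the background range, and Mpo, the myeloperoxidase gene, averaged 13.85 ± 0.14 in deleted, 13.87 ± 0.11 in floxed and 14.19 ± 0.11 in Hoxa9-Meis1 leukemias. Floxed replicate 5 had the widest gap between the 3' and 5' Gapdh control probe sets, at 1.03, against 0.44 to 0.81 on the other arrays.

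Deleted leukemias differed from floxed ones at 5 of the 10 probe sets. Cd3e, Klrd1, Gzma and Thy1 rose, by 0.93 to 1.56, and Cd5 fell by 1.20. Among all probe sets 2.40% were called higher, 3.76% lower and 6.16% in either direction. The 3 deleted and 3 floxed arrays did not overlap for 7 of the 10 probe sets, against 24.8% of all probe sets. The median difference was 0.54 over the 10 probe sets and 0.04 over all probe sets. The members were chosen with earlier results of these data known, so these values do not test whether the set stands out.

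**Figure D1:**
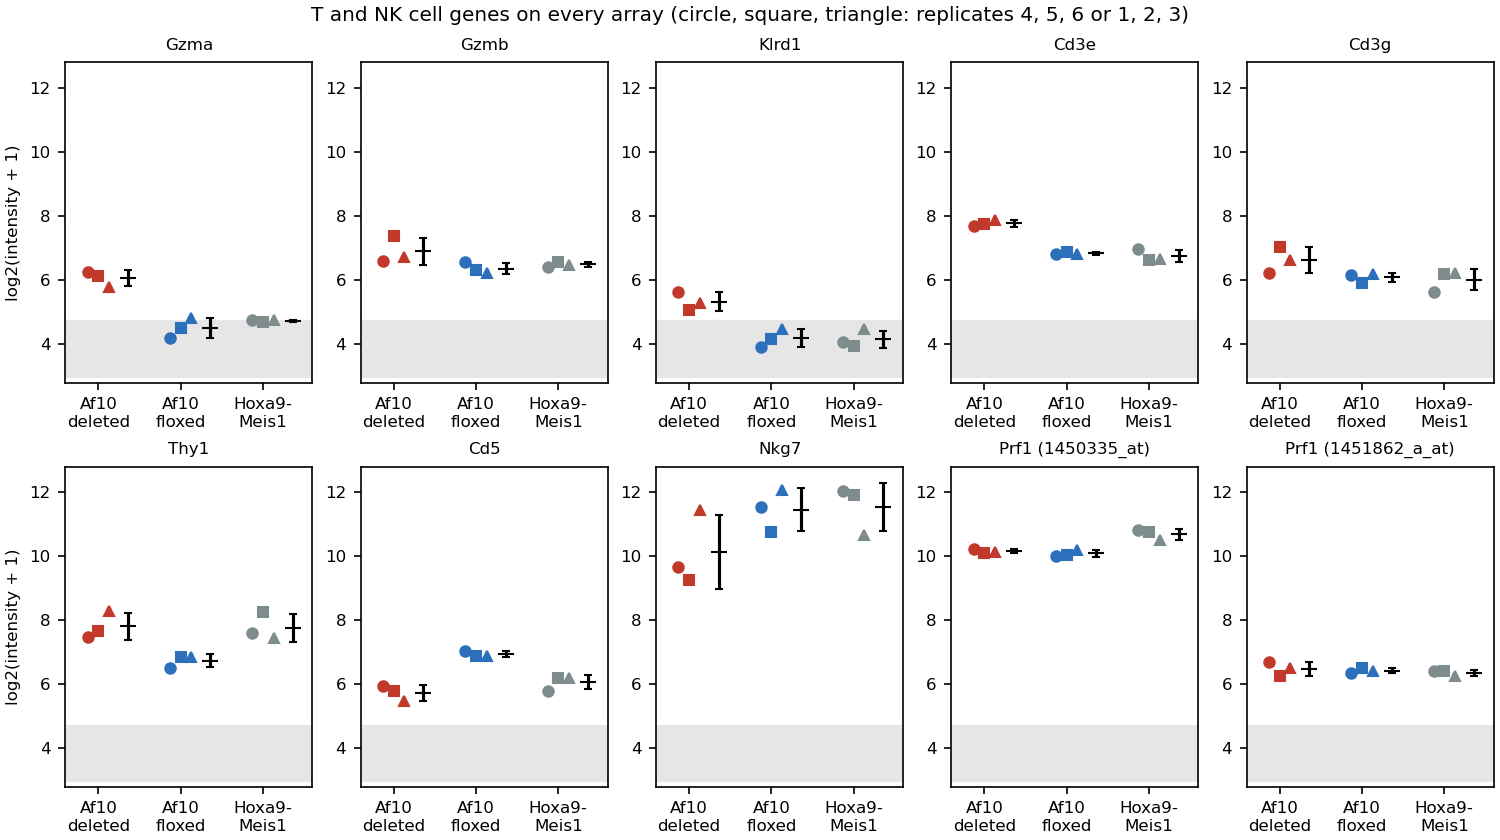
Log2(intensity + 1) of the 10 T and NK cell probe sets on each array (symbols, one per replicate), with the mean and SD of each group as a black bar beside its points; the grey band is the background range, 2.97 to 4.71. Gzma, Klrd1 and Cd3e were higher on every deleted array than on any other, Cd5 was highest in floxed leukemias, and Nkg7 spread widely within every group.

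The promoters of Gzma and Cd3e, which rose, and of Cd5, which fell, are shown to set the members with opposite directions side by side. The 250 bases before each start site come from the RefSeq table of build GRCm38.p6, 5′ to 3′ on the minus strand, at chr13:113100982-113101231 for Gzma, chr9:45009612-45009861 for Cd3e and chr19:10738975-10739224 for Cd5. The table holds an entry for 8 of the 10 genes. Capitals mark matches on either strand to the RUNX letters TGTGGT, the ETS letters GGAAGT, the HOX-PBX letters TGATTNAT or the TATA letters TATAAA.
Gzma: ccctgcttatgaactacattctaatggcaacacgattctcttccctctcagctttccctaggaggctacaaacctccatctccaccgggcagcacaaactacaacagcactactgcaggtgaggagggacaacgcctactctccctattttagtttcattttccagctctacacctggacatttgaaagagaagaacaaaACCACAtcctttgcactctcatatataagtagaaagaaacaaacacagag
Cd3e: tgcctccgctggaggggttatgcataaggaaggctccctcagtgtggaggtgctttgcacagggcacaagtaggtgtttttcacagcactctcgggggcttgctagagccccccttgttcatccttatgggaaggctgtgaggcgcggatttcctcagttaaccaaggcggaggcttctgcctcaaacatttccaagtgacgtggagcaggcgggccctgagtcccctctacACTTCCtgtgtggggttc
Cd5: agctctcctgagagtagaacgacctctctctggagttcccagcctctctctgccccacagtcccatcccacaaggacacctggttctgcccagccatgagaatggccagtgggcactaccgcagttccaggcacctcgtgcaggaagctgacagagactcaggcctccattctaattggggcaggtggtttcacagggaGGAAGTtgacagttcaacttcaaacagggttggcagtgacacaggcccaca
Gzma had 1 RUNX match, on the opposite strand, and Cd3e and Cd5 had 1 ETS match each. No match to the HOX-PBX or TATA letters stood in these windows. Of 32851 promoters of the table, 14.0% held the RUNX letters, 19.7% the ETS letters, 2.82% the HOX-PBX letters and 12.4% the TATA letters. The matches are descriptions of sequence, and both an ETS match in a gene that rose and one in a gene that fell are among them.

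Of the CD3 genes of the T cell receptor complex, Cd3e alone was called in deleted against floxed leukemias. Cd3e, which encodes the CD3 epsilon chain, was at 7.68, 7.74 and 7.88 in deleted, at 6.80, 6.89 and 6.82 in floxed and at 6.95, 6.63 and 6.67 in Hoxa9-Meis1 leukemias. Every deleted array lay above every other array, while the floxed and Hoxa9-Meis1 groups overlapped. Cd3e rose 1.91-fold in deleted against floxed leukemias (difference 0.93, SE 0.12, limma adjusted p = 0.00343).

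Cd3g, for the CD3 gamma chain, was at 6.22, 7.04 and 6.63 in deleted, at 6.14, 5.92 and 6.19 in floxed and at 5.63, 6.19 and 6.21 in Hoxa9-Meis1 leukemias. Deleted replicate 4 lay just above the highest floxed array and deleted replicate 5 well above it. The difference between deleted and floxed leukemias was 0.55, with a 95% interval of 0.03 to 1.06, and did not pass (limma adjusted p = 0.207).

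Cd3d and Cd247 encode the remaining CD3 delta and zeta chains and are not among the 10 genes. Cd3d was at 7.56, 7.21 and 6.74 in deleted, at 6.91, 6.49 and 6.74 in floxed and at 6.41, 6.44 and 6.47 in Hoxa9-Meis1 leukemias. The deleted and floxed arrays overlapped, and their difference of 0.46 did not pass (limma adjusted p = 0.229). Against Hoxa9-Meis1 leukemias Cd3d was higher in deleted leukemias by 0.73 and was called (limma adjusted p = 0.0406), in the same direction as Cd3e. The brightest of the 4 probe sets of Cd247 differed by -0.48 (limma adjusted p = 0.307). The other 3 differed by 0.34 or less in size, and none passed.

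Cd3e, Cd3d and Cd3g lie next to each other on mouse chromosome 9, not far from Kmt2a, the gene of MLL. Of the 10 measured neighbours of Cd3e in the RefSeq gene order, 5 on each side, 0 were called in deleted against floxed leukemias by limma, and their median difference was 0.19. Kmt2a averaged 9.98 in deleted and 9.80 in floxed leukemias (limma adjusted p = 0.809).

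Thy1 and Cd5, genes for surface proteins of T cells, moved in opposite directions. Thy1, a small membrane glycoprotein of T cells that some other blood and stromal cells also carry, was at 7.46, 7.67 and 8.29 in deleted, at 6.50, 6.85 and 6.85 in floxed and at 7.60, 8.25 and 7.43 in Hoxa9-Meis1 leukemias. The floxed arrays were the low ones, and the deleted and Hoxa9-Meis1 arrays overlapped. Thy1 rose 2.10-fold in deleted against floxed leukemias (difference 1.07, SE 0.26, limma adjusted p = 0.0476). That call sat at the threshold. It was lost when any 1 MLL-AF9 array, or Hoxa9-Meis1 replicate 1 or 3, was left out (limma adjusted p of 0.0501 to 0.117), and under 13 of 19 alternative settings in all.

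Thy1 also lies on chromosome 9, apart from the CD3 genes. Among its 10 measured neighbours Trim29 rose by 1.94 and Oaf fell by 1.56 in deleted against floxed leukemias (limma adjusted p = 0.000193 and 0.00169). The neighbours on either side of Thy1, Nectin1 and Usp2, were not called. Near other members, Gabarapl1 by Klrd1 fell by 1.24 (limma adjusted p = 0.0448), Tmem109 by Cd5 fell by 1.33 (0.0328) and Sgpl1 by Prf1 rose, at 9.96 in deleted and 8.96 in floxed leukemias (0.0398).

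Cd5, an inhibitory receptor of T cells that some B cells also carry, was at 5.96, 5.79 and 5.47 in deleted, at 7.04, 6.89 and 6.88 in floxed and at 5.80, 6.20 and 6.19 in Hoxa9-Meis1 leukemias. The floxed arrays were all above the other arrays. Cd5 fell 2.29-fold in deleted against floxed leukemias (difference -1.20, SE 0.16, limma adjusted p = 0.00399), which is opposite in direction to Cd3e.

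Klrd1 and Gzma had floxed means within the background range and rose in deleted leukemias. Klrd1, whose product pairs with NKG2 chains on NK cells and some T cells, was at 5.64, 5.05 and 5.27 in deleted, at 3.92, 4.16 and 4.48 in floxed and at 4.06, 3.93 and 4.46 in Hoxa9-Meis1 leukemias. Every floxed and Hoxa9-Meis1 array lay within the background range, and every deleted array lay above it. Klrd1 rose 2.20-fold in deleted against floxed leukemias (difference 1.13, SE 0.21, limma adjusted p = 0.0159), a size that the background of the dim groups understates. The call was lost without deleted replicate 4 (limma adjusted p = 0.0528), without floxed replicate 5 (0.0597) and with that array and deleted replicate 6 both left out (0.108).

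Gzma, for granzyme A, was at 6.26, 6.13 and 5.78 in deleted, at 4.18, 4.49 and 4.81 in floxed and at 4.75, 4.69 and 4.75 in Hoxa9-Meis1 leukemias. The floxed and Hoxa9-Meis1 arrays lay in or just above the background range, and the deleted arrays were all higher. Gzma rose in deleted against floxed leukemias by a measured 2.96-fold (difference 1.56, SE 0.18, limma adjusted p = 0.00173). Since the floxed mean lies in the background range, this size is understated too, and the rises of Gzma and Klrd1 are not ranked against each other.

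The remaining granule genes were not called in this comparison. Gzmb, for granzyme B, was at 6.59, 7.39 and 6.71 in deleted, at 6.56, 6.31 and 6.21 in floxed and at 6.41, 6.58 and 6.48 in Hoxa9-Meis1 leukemias. Deleted replicate 5 stood above the rest, and deleted replicate 4 was only just above floxed replicate 4. The difference of 0.54 between deleted and floxed leukemias, with a 95% interval of 0.08 to 0.996, did not pass (limma adjusted p = 0.168).

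The brighter probe set of Prf1, for perforin, was at 10.22, 10.11 and 10.14 in deleted, at 10.02, 10.03 and 10.21 in floxed and at 10.82, 10.75 and 10.49 in Hoxa9-Meis1 leukemias. The deleted and floxed arrays overlapped, and the Hoxa9-Meis1 arrays were all higher. Between deleted and floxed leukemias Prf1 differed by 0.07, with a 95% interval of -0.20 to 0.35 (limma adjusted p = 0.779). The dimmer probe set of Prf1 ranged from 6.24 to 6.69 over all 9 arrays and was called in none of the comparisons.

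Nkg7, for a granule membrane protein of cytotoxic cells, was at 9.65, 9.27 and 11.43 in deleted, at 11.54, 10.75 and 12.08 in floxed and at 12.04, 11.91 and 10.68 in Hoxa9-Meis1 leukemias. Deleted replicate 6 lay among the floxed arrays while the other deleted arrays lay below all of them. With an SD of 1.16 in the deleted group, the difference of -1.34 from floxed leukemias did not pass (95% interval -2.69 to 0.01, limma adjusted p = 0.235). Without deleted replicate 6 it was -2.00 (limma adjusted p = 0.0593), and without deleted replicate 5 it was -0.91 (0.469).

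**Figure D2:**
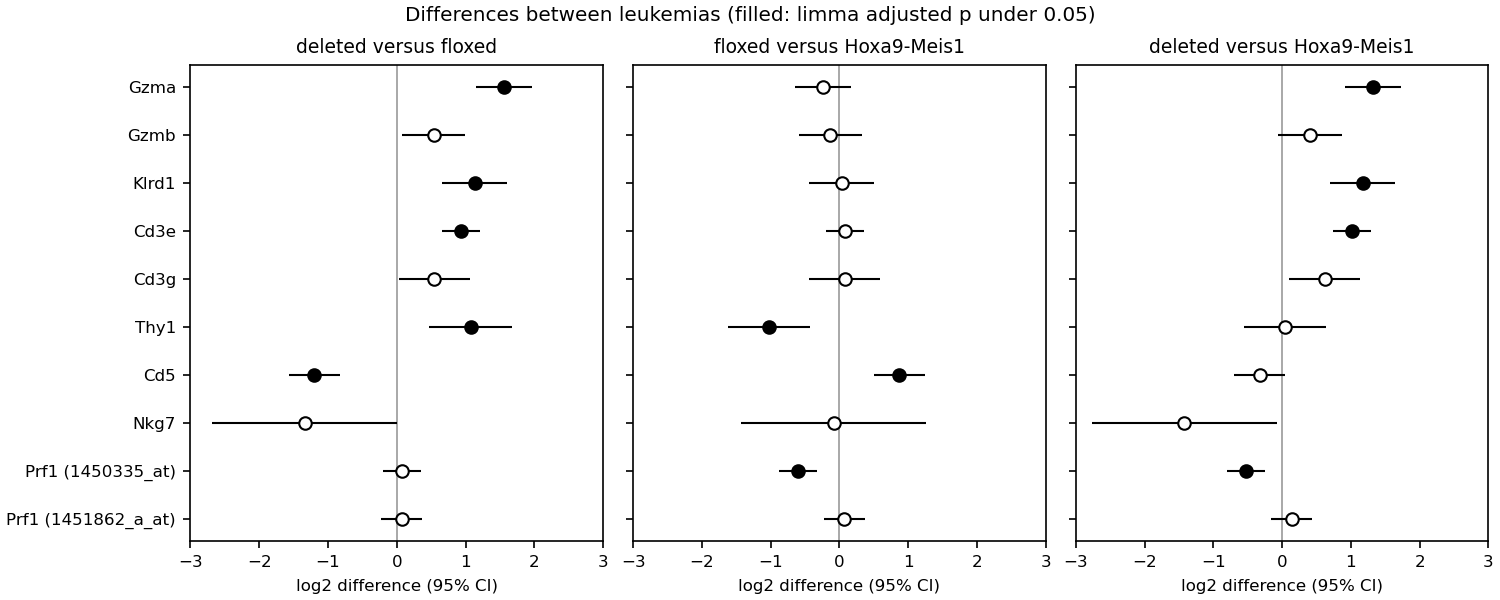
Log2 differences with 95% intervals for the 10 probe sets in the 3 comparisons among deleted, floxed and Hoxa9-Meis1 leukemias, filled where the limma adjusted p was under 0.05. Gzma, Klrd1 and Cd3e were called higher in deleted leukemias against both other groups, Thy1 and Cd5 were called where floxed leukemias took part, and the brighter Prf1 probe set was called against Hoxa9-Meis1 leukemias.

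Floxed leukemias differed from Hoxa9-Meis1 leukemias at 3 of the 10 probe sets, where 9.01% of all probe sets were called, 4.94% higher and 4.07% lower. The groups did not overlap for 3 of the 10, against 28.1% of all probe sets. Cd5 was higher by 0.87 (SE 0.16, limma adjusted p = 0.0132). Thy1 was lower by a difference of -1.03 (SE 0.26, limma adjusted p = 0.0438), and the brighter Prf1 probe set by a difference of -0.60 (SE 0.12, limma adjusted p = 0.0182). These calls were sensitive to single arrays: without Hoxa9-Meis1 replicate 1 none of the 10 was called by limma, where 3 had an unadjusted p under 0.05 with all arrays. The Prf1 call was lost without floxed replicate 4 or 5 or Hoxa9-Meis1 replicate 1 or 2, at limma adjusted p of 0.0530 to 0.0770. Without deleted replicate 5, floxed replicate 4, 5 or 6, or Hoxa9-Meis1 replicate 1 or 2, Thy1 was not called (limma adjusted p of 0.0641 to 0.128). Cd3e, Cd3g, Klrd1, Gzma and Gzmb each differed by 0.24 or less in size, and none of them passed.

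Deleted leukemias differed from Hoxa9-Meis1 leukemias at 4 of the 10 probe sets, where 15.0% of all probe sets were called, 7.19% higher and 7.82% lower. The groups did not overlap for 6 of the 10, against 34.2% of all probe sets. Gzma was higher by 1.33 (limma adjusted p = 0.00175), Klrd1 by 1.17 (0.00656) and Cd3e by 1.02 (0.000983). These calls held under each of the 18, 17 and 18 alternative settings that could be run for them. The brighter Prf1 probe set was lower, with a difference of -0.53 (SE 0.12, limma adjusted p = 0.0200), a call lost without deleted replicate 5 or 6 or Hoxa9-Meis1 replicate 1 or 2, at limma adjusted p of 0.0516 to 0.0795. Nkg7 differed by -1.42 and did not pass (limma adjusted p = 0.155), but without deleted replicate 6 the difference was -2.08 and passed (limma adjusted p = 0.0278). Thy1 differed by 0.04, with a 95% interval of -0.55 to 0.64. Each pair of these 3 comparisons shares a group, so their values are given side by side and are not independent.

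The called genes thus took more than one order across the groups. Gzma, Klrd1 and Cd3e were higher in deleted leukemias than in both other groups, which did not differ at these genes beyond their spread. Thy1 was lower in floxed leukemias than in both other groups, and Cd5 was higher there than in both. The brighter Prf1 probe set was higher in Hoxa9-Meis1 leukemias than in both MLL-AF9 groups.

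Within the deleted group no array was high for the whole set. Deleted replicate 4 was the highest deleted array for 5 of the 10 probe sets, replicate 5 for 2 and replicate 6 for 3. Gzma and Klrd1 were highest on replicate 4, at 0.20 and 0.32 above the mean of the 3 arrays, where Cd3e, Cd3g and Thy1 were lowest. Cd3g and Gzmb were highest on replicate 5, where Klrd1 was lowest. Cd3e, Thy1 and Nkg7 were highest on replicate 6, where Gzma was lowest. Cd3e and Thy1 thus took the same order over the 3 replicates, lowest on 4 and highest on 6. Against floxed leukemias, replicates 4, 5 and 6 lay above all floxed arrays for 8, 6 and 7 of the 10 probe sets. The share of all probe sets was not computed for these counts, so whether they exceed it is not known. Cd5 lay below all floxed arrays on each deleted replicate.

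**Figure D3:**
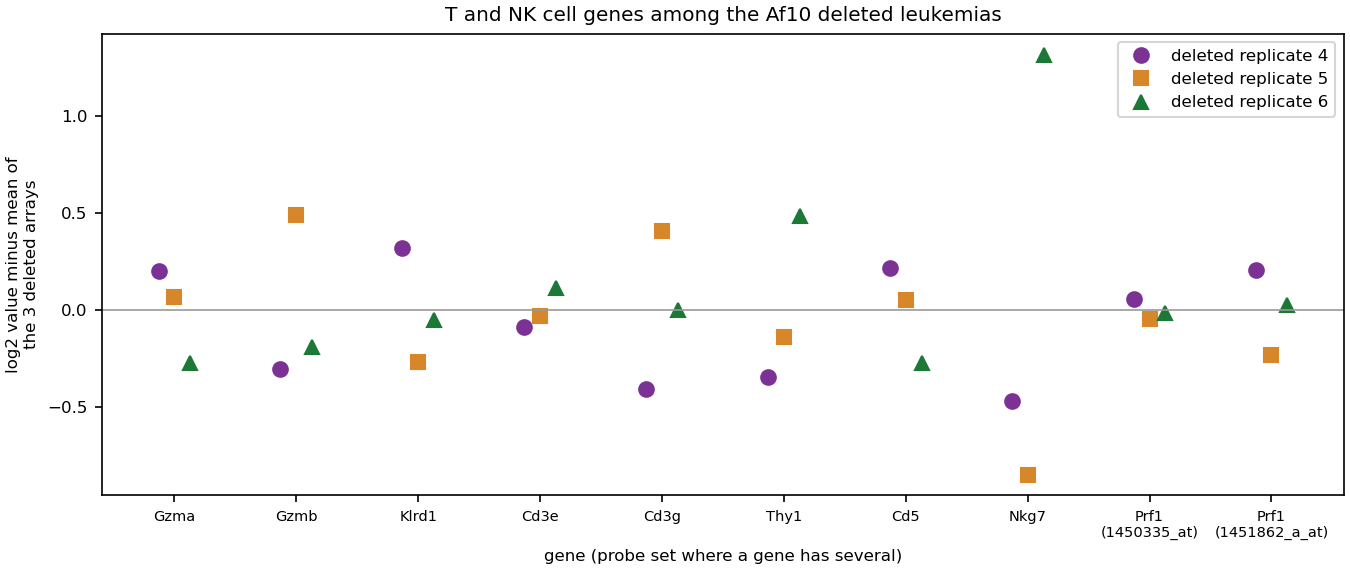
For each of the 10 probe sets, the log2 value of each Af10 deleted array minus the mean of the 3 deleted arrays. No replicate lies on 1 side of the line for every gene: replicate 4 is above it for Gzma and Klrd1 and below it for Cd3e, Cd3g, Thy1 and Nkg7.

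Other genes of the same cell types were read from 2 lists. Of 31 measured T cell genes outside the set, 0 rose and 1 fell in deleted against floxed leukemias by limma, where 2.92% of all 18194 genes were called higher and 3.46% lower by the same rule, so the count is near that background. Of the 31 genes, 20 were on the higher side and 11 on the lower, with a median difference of 0.17, against 0.06 over all genes. At an unadjusted p under 0.05, 9 were higher and 4 lower. The share of all genes at that unadjusted p was not computed, so whether these counts exceed it is not known. Il7r, the interleukin-7 receptor chain of early lymphoid cells, fell 5.56-fold (difference -2.48, SE 0.60, limma adjusted p = 0.0448). It was at 6.31, 5.67 and 6.52 in deleted, at 7.57, 10.29 and 8.06 in floxed and at 6.53, 6.13 and 6.08 in Hoxa9-Meis1 leukemias. Floxed replicate 5 was the highest array. The call was lost without any 1 of deleted replicates 4, 5 and 6, floxed replicate 6 and Hoxa9-Meis1 replicates 1, 2 and 3 (limma adjusted p of 0.0528 to 0.125). Without floxed replicate 5 the call held and the difference was -1.65. The second probe set of Il7r did not pass (0.189). Cd2, Cd6, Cd4 and Zap70, a kinase that binds phosphorylated CD3 chains, differed by 0.10 to 0.41, and none passed. The uncalled genes nearest the threshold were Themis (difference 0.54, limma adjusted p = 0.0508), Lcp2 (0.77, 0.0706), Skap1 (0.41, 0.0776) and Ubash3a (-0.84, 0.0825). The co-stimulatory receptor gene Cd28 averaged 5.97 ± 0.24 in deleted and 7.84 ± 1.31 in floxed leukemias (difference -1.87, limma adjusted p = 0.0998). Rag2, which cuts receptor genes for rearrangement in early lymphocytes, averaged 6.48 ± 0.37 in deleted and 7.73 ± 0.86 in floxed leukemias (difference -1.25, limma adjusted p = 0.0987), and it did not pass either.

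Of 30 measured NK and cytotoxic genes outside the set, 2 rose and 1 fell, again close to the share of all genes. On the higher side were 25 of the 30 and on the lower side 5, with a median difference of 0.27. This lean was not particular to the NK list. Of 13 myeloid markers 11 were on the higher side and 2 on the lower, with a median difference of 0.39. At an unadjusted p under 0.05, 11 of the 30 NK and cytotoxic genes were higher and 1 lower, again without a share of all genes to set beside them. Il2rb, the receptor chain through which NK and T cells receive interleukin-2 and interleukin-15, was at 7.29, 7.44 and 7.91 in deleted, at 5.77, 5.88 and 6.30 in floxed and at 5.92, 6.37 and 6.59 in Hoxa9-Meis1 leukemias. All deleted arrays were above all others. Il2rb rose 2.95-fold (limma adjusted p = 0.00581), its second probe set rose 1.86-fold (limma adjusted p = 0.00709), and the first was not called when deleted replicate 6 and floxed replicate 5 were both left out (0.0580).

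Tbx21, for the transcription factor T-bet of NK cells and type 1 T cells, was at 6.36, 7.17 and 7.27 in deleted, at 5.79, 5.74 and 5.89 in floxed and at 5.85, 6.03 and 6.05 in Hoxa9-Meis1 leukemias. Again all deleted arrays were the highest, and deleted replicate 4 was the lowest of them. Tbx21 rose 2.19-fold (limma adjusted p = 0.0187), and the call was lost without deleted replicate 5 (0.0626), deleted replicate 6 (0.0513), floxed replicate 5 (0.0724) or both deleted replicate 6 and floxed replicate 5 (0.135), and in a fit of the 2 groups alone (0.0582). Cst7, for the granule protease inhibitor cystatin F, fell 1.99-fold (limma adjusted p = 0.0486) and was lost as a call without any 1 of 7 arrays, namely deleted replicates 4 to 6, floxed replicates 4 and 6 and Hoxa9-Meis1 replicates 1 and 2 (limma adjusted p of 0.0631 to 0.140). Wide differences that did not pass were those of Klra17, an NK receptor family gene, at 8.18 ± 1.67 in deleted and 5.55 ± 0.41 in floxed leukemias (limma adjusted p = 0.0602), and of the chemokine gene Ccl5, at 8.43 ± 0.63 in deleted and 7.05 ± 0.70 in floxed leukemias (0.131). Which cells expressed Klra17 was not tested.

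In deleted against Hoxa9-Meis1 leukemias, 1 of the 31 T cell genes was higher and 3 were lower, and 4 of the 30 NK and cytotoxic genes were higher and 3 lower, where 8.90% of all genes were called higher and 6.03% lower. Genes of the NK and cytotoxic list called higher were Klra17 (difference 2.52, limma adjusted p = 0.0401), Il2rb (1.25, 0.00746), Tbx21 (0.96, 0.0189) and Ctsw, for a cathepsin of cytotoxic cells (0.75, 0.00850). Those called lower were Cst7 (-2.04, 0.00100), Serpinb9, an inhibitor of granzyme B (-1.21, 0.0166), and Cd160 (-1.02, 0.0396). Besides Cd3d, the T cell genes called were the co-stimulatory receptors Cd28 (-2.34, limma adjusted p = 0.0270) and Cd27 (-2.50, 0.0272) and Ubash3a, a suppressor of T cell receptor signalling (-1.18, 0.0127). In floxed against Hoxa9-Meis1 leukemias, 1 T cell gene was higher, Il7r (2.40, limma adjusted p = 0.0396), and 1 was lower, Cd27 (-2.42, 0.0432). In the NK list 0 were higher by limma, also at an unadjusted p under 0.05, and 2 were lower, Cst7 (-1.04, limma adjusted p = 0.0321) and Cd226 (-0.59, 0.0309), where 5.42% of all genes were called higher and 3.24% lower. These list calls against Hoxa9-Meis1 leukemias were not rerun without single arrays.

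**Figure D4:**
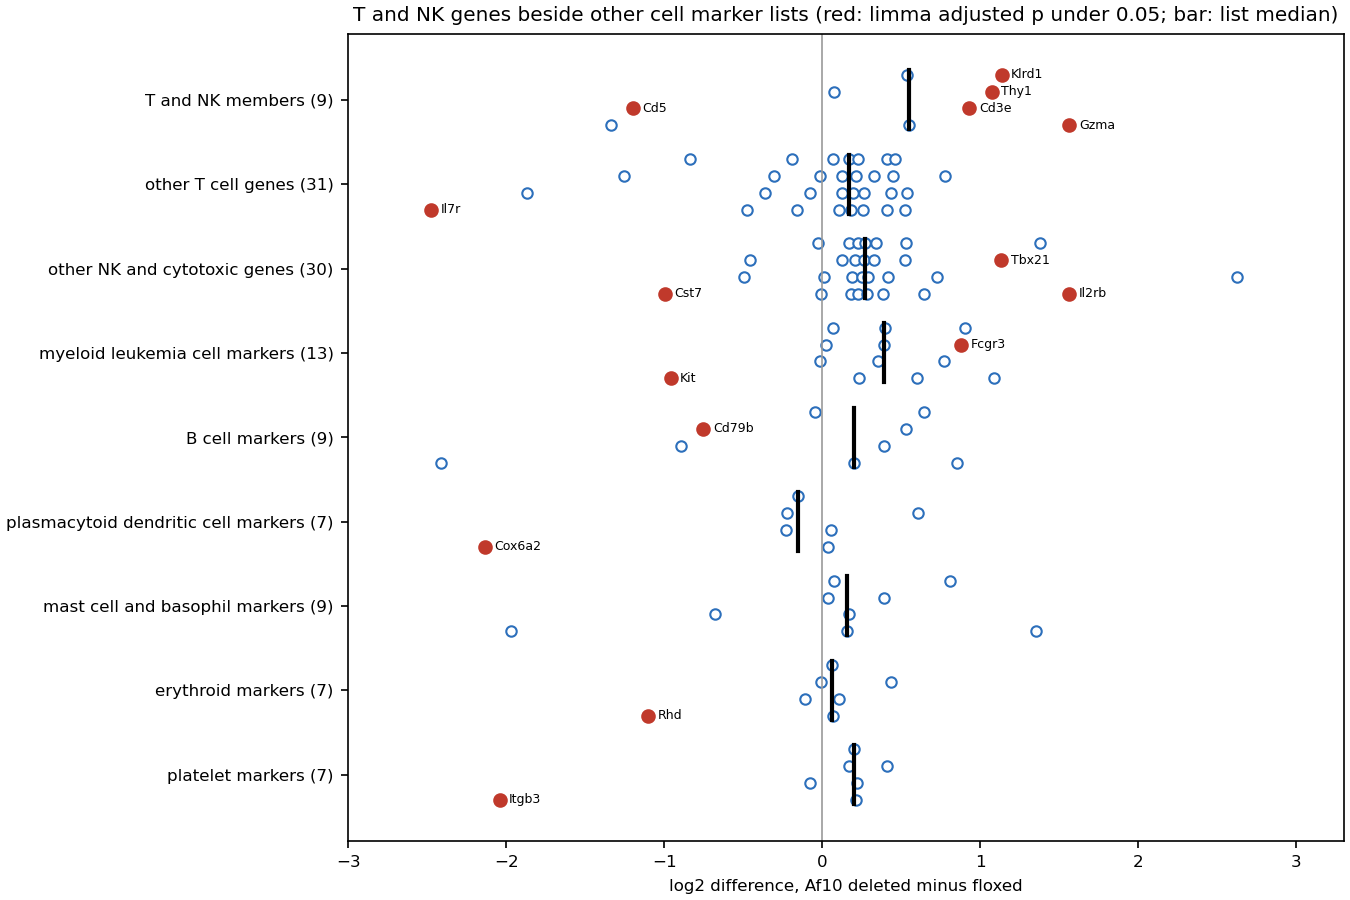
Log2 difference between Af10 deleted and floxed leukemias for each measured gene (brightest probe set) of the T and NK members, of 2 further lists of T and NK genes and of 6 lists of other cell markers, with the number of genes in brackets, called genes in red and named, and the list median as a bar. The medians of the further T and NK lists are 0.17 and 0.27, and the widest points that are not called are Klra17 to the right and Cd28 to the left among them. Medians of the 6 other lists run from -0.15 (plasmacytoid dendritic cell) to 0.39 (myeloid).

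The defining NK cell marker Ncr1, for the receptor NKp46, averaged 4.61 ± 0.19 in deleted, 4.09 ± 0.19 in floxed and 4.26 ± 0.21 in Hoxa9-Meis1 leukemias, all within the background range. In the NK list 7, 9 and 8 of the 30 genes had group means in the background range in deleted, floxed and Hoxa9-Meis1 leukemias. In the T cell list it was 0, 3 and 1 of 31. The summed intensity of the T cell list ranged from 5369 to 5462 in deleted, 4701 to 6921 in floxed and 5676 to 6704 in Hoxa9-Meis1 leukemias, so the deleted arrays lay within the floxed range. Lcp2 and Cd247 were its brightest genes in deleted leukemias, at 10.74 and 9.87, so each dimmer gene weighed little in the sum. Floxed replicate 5, with Il7r at 10.29, gave the highest floxed sum. The summed intensity of the NK list, most of which came from Srgn, a granule proteoglycan gene that myeloid cells also express, was 13818 to 14990 in deleted, 13563 to 15147 in floxed and 15928 to 19738 in Hoxa9-Meis1 leukemias. What part admixed T or NK cells had in the rises of Cd3e, Klrd1 and Gzma was not tested.

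Markers of other cell types that marrow could hold were read in the same comparison. Of 9 B cell, 7 plasmacytoid dendritic cell, 7 erythroid and 7 platelet markers, 1 in each list fell and 0 rose by limma. Of 9 mast cell and basophil markers 0 were called, and of 13 myeloid markers 1 rose and 1 fell. Over all genes 2.92% were called higher and 3.46% lower. At an unadjusted p under 0.05, 4 B cell markers were higher and 3 lower, as were 4 and 1 of the myeloid and 1 and 1 of the mast cell markers. For these counts too the share of all genes was not computed. The summed intensity of the B cell markers was 1738 to 1860 in deleted, 2665 to 3701 in floxed and 1412 to 2701 in Hoxa9-Meis1 leukemias. The lower sum in deleted leukemias came mostly from Vpreb1, which averaged 7.84 in deleted and 10.26 in floxed leukemias and was not called, and from Cd79b, which was called, while 5 of the 9 markers were on the higher side. The summed intensity of the plasmacytoid dendritic cell markers, cells that can also make granzyme B, was 1689 to 2278 in deleted, 2926 to 3516 in floxed and 1782 to 2094 in Hoxa9-Meis1 leukemias. Most of that difference came from Cox6a2, at 8.63 in deleted and 10.76 in floxed leukemias. The other 6 markers differed by -0.23 to 0.61. The sum of the mast cell and basophil markers was 5474 to 6518 in deleted, 3730 to 4147 in floxed and 4557 to 18364 in Hoxa9-Meis1 leukemias. That of the myeloid markers was 88257 to 98549 in deleted, 64218 to 88726 in floxed and 89312 to 97351 in Hoxa9-Meis1 leukemias. Their part in the values of Cd5 and Gzmb was not tested.

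The genes whose centred profile over the 9 arrays was closest to a called member were sought among 2825 or 2826 genes with an SD of at least 0.5. None of the 10 closest genes was a member, and none stood in the T or NK lists. Genes that varied less, among them Cd3e itself, Cd3g, Cd3d and Gzmb, were not candidates. The search could not have returned them, so it does not show whether the members move together. For Cd3e they were Plxnb3 and Gsn, with root mean square differences of 0.16 and 0.17. For Gzma they were Trip4 and Lair1 (0.18 and 0.22), for Klrd1 Tmem216 and Stard8 (0.18 and 0.20), for Thy1 Fam241a and Rab3gap1 (0.19 for both) and for Cd5 Dcun1d1 and Elk3 (0.18 and 0.19). The array values describe likeness over 9 arrays in 3 groups and say nothing of shared function.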

How the data were processed

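Expression was measured on 9 one-colour Affymetrix arrays, 1 per sample, from 100 ng of total RNA each, per the labels. Each deposited value is the intensity of 1 probe set on 1 array, from 4.60 to 32082, which the authors made with RMA (background correction, quantile normalization, median polish) per the submitters' processing notes. Neither the software with its version nor the chip definition is given in the sources used here. The values are on a linear scale, so log2(value + 1) was taken. RMA's quantile step would remove a shift of most genes in 1 direction, and arrays have no depth, so their number limits the precision.

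The platform annotation gave 1 symbol to 34958 probe sets and several to 932, and 9211 were not listed. A model with 1 mean per group was fitted to all 9 arrays in limma 3.58.1 (R 4.3.3; lmFit, eBayes), two-sided, with Benjamini-Hochberg adjustment over 45101 probe sets. Lists and neighbours used the brightest probe set of a gene. The text names all members, the called genes of the T and NK lists, the 2 closest profiles of each called member, and measured neighbours; all other genes were named after their values were seen. The members and lists were chosen with earlier results of these data known. On simulated data for deleted versus floxed leukemias over 45101 probe sets, 46.0% of 2-fold and 95.0% of 4-fold changes were recovered, with 10 false calls.

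No pair of arrays was a duplicate (smallest mean absolute difference 0.22). The replicate numbers 4, 5 and 6 stand in both MLL-AF9 groups, but same-numbered arrays deviated together only weakly (r across probe sets 0.05, 0.05 and 0.03), so they were not treated as pairs. P-values reflect only how far these samples scatter, which may be technical. Alternatives were another pseudocount, filter, normalization, array weighting, spread model, set of arrays and gene summary.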

Additional observations from a re-analysis of the deposited data

How the results depend on the processing

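The calls of Gzma, Cd3e and Cd5 in deleted against floxed leukemias held under all 19 alternatives, at limma adjusted p of 0.00107 to 0.0480, 0.00192 to 0.0421 and 0.00266 to 0.0331, with a smallest difference for Gzma of 0.86 at a pseudocount of 32. With the replicate block the limma adjusted p was 0.0776 for Klrd1, 0.0541 for Thy1, 0.0731 for Tbx21, 0.123 for Cst7 and 0.148 for Il7r, none of them called. Klrd1 was not tested without dim probe sets, since it was removed with them. Of the 10 probe sets, the replicate block and leaving out deleted replicate 6 with floxed replicate 5 each left 3 called in place of 5, and leaving out single arrays gave 3 to 5. Over all probe sets 2779 were called. It was 1735 in a fit of the 2 groups alone, 1180 with the replicate block, 1060 without deleted replicate 6 and floxed replicate 5, and 1344 to 2718 without single arrays. With 1 probe set per gene, where fewer features are tested, 1246, 1618 and 2821 were called for deleted against floxed, floxed against Hoxa9-Meis1 and deleted against Hoxa9-Meis1 leukemias. Averaging the probe sets of each gene gave 1381, 1877 and 3050.

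In floxed against Hoxa9-Meis1 leukemias, 4064 probe sets were called, against 2664 without deleted replicate 6 and floxed replicate 5 and 1725 to 4106 without single arrays. Of the 10 probe sets 1 remained called without that pair of arrays, and 0 to 3 without single arrays. In deleted against Hoxa9-Meis1 leukemias 6770 were called, and 3864 to 7285 without single arrays, with 3 or 4 of the 10. The sign turned only for differences that were not called: for Thy1 against Hoxa9-Meis1 leukemias to -0.13 with array weights and to -0.20 with deleted replicate 6 and floxed replicate 5 both left out, and for Nkg7 in floxed against Hoxa9-Meis1 leukemias to 0.27 without that pair. Leaving out single arrays gave -0.20 to 0.29 for Thy1 in deleted against Hoxa9-Meis1 leukemias, -0.52 to 0.27 for Nkg7, -0.11 to 0.17 for Cd3g and -0.11 to 0.19 for Klrd1 in floxed against Hoxa9-Meis1 leukemias, and -0.033 to 0.185 for the dimmer Prf1 probe set in deleted against floxed leukemias. The mean of the Prf1 probe sets was called in no comparison. The cause of these shifts was not tested.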
